A study of Bombyx mori with 4 samples.

Results

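Broad open regions are the long stretches of accessible chromatin in the silkworm brain and fat body, defined here as regions of 1500 bp or more after peaks that overlapped by 1 bp or more were merged over 4 deposited ATAC-seq peak lists. They numbered 691 of 130309 merged regions, or 0.53%, and covered 1.23 Mb, or 2.79% of the merged bases. The members were chosen by peak positions alone, so their width, and any measure of the same peak calls, is given as a description without a test. The count rests on individual libraries: merging without brain 1 left 309 regions and merging without fat body 2 left 419, whereas 659 were found without brain 2 and 578 without fat body 1.

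ATAC-seq marks open chromatin by letting a transposase cut and tag DNA that is not wrapped in nucleosomes or otherwise covered. Most open sites are short gaps in the nucleosome array at promoters and enhancers. Long open stretches are known from active promoters with several start sites, from closely spaced enhancers and from strongly transcribed genes, where several nucleosomes in a row are displaced or unstable. In a peak list such a stretch can appear as 1 wide peak, when coverage stays above the threshold throughout, or as several narrow peaks with a summit each, when it dips between them. The larval brain is the source of neuropeptide hormones, among them the one that drives the moulting glands, and the fat body is the insect counterpart of liver and adipose tissue, which makes storage proteins and other blood proteins.

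The tissues were brain, with the libraries brain 1 and brain 2, and fat body, with the libraries fat body 1 and fat body 2, all from wild-type larvae of Bombyx mori strain P50 whose titles carry the stage code L5D3. The labels name no treatment, and they state neither sex, nor pooling, nor whether replicate libraries stem from different animals. The peak names of brain 1 carry a different stage code, 5L-4D, so a comparison with brain 1 may mix stage with tissue, and the 2 cannot be told apart. Brain 1 had 36420 peaks and brain 2 had 11572, while fat body 1 had 107057 and fat body 2 had 14752. The median peak of brain 1 was 425 bp wide and that of brain 2 491 bp, against 166 bp for fat body 1 and 637 bp for fat body 2. The shortest peak measured 203, 230, 94 and 212 bp in that order. The smallest −log10 q, a measure explained below, was 3.65, 3.18, 3.69 and 5.04, so fat body 2 was listed at a stricter limit. Read depth is unknown, because a peak list holds no read counts. With 2 libraries per tissue, the smallest two-sided p of an exact permutation test over libraries is 0.333, and no test between the tissues was made. No expression values or gene positions of the same genome build were used, so the tissue labels could not be set against marker genes and regions are named by sequence and position.

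Most broad regions lay just above the threshold. The median width was 1688 bp, with quartiles of 1574 and 1882 bp. Widths under 1600 bp made up 222 regions, or 32.1%, while 115 regions, or 16.6%, reached 2000 bp and 5 reached 3000 bp. The threshold falls on a smooth slope of widths, with 34 regions less than 10 bp above it and 33 up to 10 bp below it. Of the members just inside it, 1 on BHWX01000005.1 (12834167 to 12835666, 1500 bp) was a single fat body 1 peak of 6.32-fold enrichment, and 1 on BHWX01000012.1 (10201927 to 10203426, 1500 bp) joined 6 peaks from all 4 lists, the widest of 863 bp. Just outside it lay regions of 1499 bp on BHWX01000024.1, from 3526215 to 3527713 with 4 peaks in the fat body lists alone, and from 5181989 to 5183487 with 1 peak in each list. Both regions just outside were chains, with widest peaks of 1002 and 1256 bp. At 1499 bp, neither could hold a peak of 1500 bp.

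The first question about each region was whether 1 wide peak or several narrow peaks made it. A single peak of 1500 bp or more was present in 550 of the 691 regions, or 79.6%. In 398 regions, or 57.6%, that peak spanned the whole merged region, and in 285 of these narrower peaks of other lists lay inside it. In 152 regions a peak of 1500 bp or more was lengthened by peaks that overhung its ends. The remaining 141 regions, or 20.4%, held no peak of that width and were chains of narrower peaks joined across lists. Without brain 1, 266 regions with such a peak were found, and without fat body 2, 340.

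Chains differed from regions with a wide peak in width and in number of peaks. They had a median width of 1607 bp and a maximum of 2652 bp, with a median of 4 peaks each and at most 8. Regions with a peak of 1500 bp or more had a median width of 1725 bp, a maximum of 4522 bp and a median of 3 peaks. Of the chains, 42 drew on 2 lists, 57 on 3 and 42 on all 4. Their widest peak came from brain 1 in 64 cases and from fat body 2 in 53, and it covered a median of 76.4% of the chain. Peaks of a single list never overlap, so each chain needs at least 2 lists that differ in where they place the edges of a peak.

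Most of the wide peaks came from 1 library of each tissue. Brain 1 had 287 peaks of 1500 bp or more and brain 2 had 15, while fat body 1 had 41 and fat body 2 had 222. These made up 0.788% of the brain 1 list and 0.130% of the brain 2 list, and 0.0383% of the fat body 1 list and 1.50% of the fat body 2 list. The library with the wide peaks was thus number 1 in brain and number 2 in fat body. These shares follow the widths of all peaks within a tissue only in fat body: the median peak of fat body 2 was wider than that of fat body 1, whereas the median peak of brain 1 was narrower than that of brain 2.

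**Figure D1:**
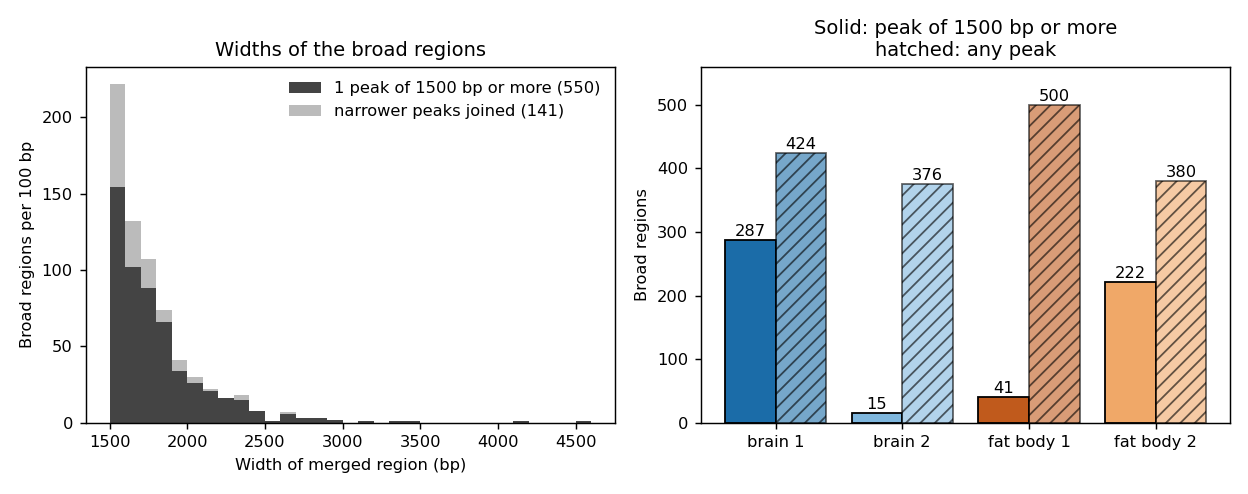
Left, number of broad regions (vertical axis) by width of the merged region in steps of 100 bp (horizontal axis), with the 550 regions that hold a peak of 1500 bp or more in dark grey and the 141 chains of narrower peaks in light grey. Right, number of broad regions in which each list has a peak of 1500 bp or more (solid bars; 287, 15, 41 and 222) and any peak (hatched bars; 424, 376, 500 and 380); presence is far more even over the lists than the wide peaks are.

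No broad region had a peak of 1500 bp or more in both libraries of the same tissue. Peaks of both brain libraries were present in 231 broad regions and peaks of both fat body libraries in 230, but a peak of 1500 bp or more occurred in both for 0 of them. A wide peak in 2 lists was found in 15 regions, always across tissues within a library number: 12 in brain 2 and fat body 2, and 3 in brain 1 and fat body 1. Wide peaks were in a brain list but no fat body list in 287 regions and in a fat body list but no brain list in 248. Within those 287 regions, fat body had narrower peaks in 246, or 85.7%. A fat body peak was present in 86.7% of all merged regions, and in 26150 of the 43417 with a brain peak. Within those 248 regions brain had narrower peaks in 130, or 52.4%. A brain peak was present in 33.3% of all merged regions, and in 26150 of the 113042 with a fat body peak.

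The 12 regions with wide peaks in brain 2 and fat body 2 had closely matching edges. Their peaks shared a median of 96.2% of their joint span, with a range from 68.1% to 99.9%. On BHWX01000023.1 (15874129 to 15875873) the brain 2 peak was 1743 bp and the fat body 2 peak 1745 bp wide, and their starts coincided. Their summits nevertheless lay 731 bp apart, the largest distance of the 12. The median summit distance was 165.5 bp, and 5 of the 12 pairs had summits within 100 bp. The region on BHWX01000014.1 (4979244 to 4981197), which all 4 lists held, had a wide peak of 9.83-fold enrichment in brain 2 and of 21.6-fold in fat body 2, with summits 18 bp apart. The 3 regions with wide peaks in brain 1 and fat body 1 matched less well, sharing 49.4%, 52.7% and 64.7% of the joint span, with summits 966, 128 and 2286 bp apart.

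Inside the wide peaks of brain 1 and fat body 2, the other lists mostly showed only part of the stretch. Of all merged regions, 27.9% had a peak in brain 1 and 8.84% in brain 2, against 79.7% in fat body 1 and 11.3% in fat body 2. Where brain 1 had a wide peak, brain 2 had a peak in 150 of 287 regions, and these covered a median of 29.7% of the region. Fat body 1 had peaks in 245 of the same 287 regions, or 85.4%. It had peaks in 79.7% of all merged regions, but in 19196 of the 36392 merged regions with a brain 1 peak. Its peaks covered a median of 23.7%. Fat body 2 had peaks in 53, or 18.5%, and covered a median of 18.2%. Where fat body 2 had a wide peak, brain 1 was present in 17 of 222 regions (7.66%), brain 2 in 126 (56.8%) and fat body 1 in 96 (43.2%). There the median covered share was 24.1% for brain 1, 44.4% for brain 2 and 13.9% for fat body 1. Where brain 2 had a wide peak, fat body 2 was present in 15 of 15 regions and covered a median of 96.3%, while brain 1 was present in 2 and fat body 1 in 9. Where fat body 1 had a wide peak, brain 1 was present in 12 of 41 regions, brain 2 in 3 and fat body 2 in 7, with medians of 29.5%, 14.6% and 36.9% covered. In regions with a wide brain 1 peak, brain 2 thus held a peak in 52.3%, against 8.84% of all merged regions. With a wide brain 2 peak, brain 1 held one in 13.3%, against 27.9%. With a wide fat body 1 peak, fat body 2 held one in 17.1%, against 11.3%. With a wide fat body 2 peak, fat body 1 held one in 43.2%, against 79.7%. The peak of the second library was narrower than 1500 bp in each case. The shares of all merged regions also count regions without the first library's peak, and 80745 of the 130309 had a peak in fat body 1 alone. They are therefore no matched base, and whether presence of the second library was high or low was not tested.

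Over all members a list held, brain 1 covered a median of 99.5% of the region and fat body 2 97.8%, whereas brain 2 covered 41.2% and fat body 1 24.5%. At least 80% of the region was covered by brain 1 in 314 of 424 regions and by brain 2 in 31 of 376. The same share was reached by fat body 1 in 41 of 500 regions and by fat body 2 in 250 of 380.

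The enrichment of the peaks was described within each list. MACS2, the peak caller, reports for each peak the fold of the summit over the local background and a −log10 q. The latter is the strength of evidence, adjusted for multiple testing within the library. Both are the authors' values. Median fold of the peaks in broad regions was 8.54 in brain 1, against 5.59 for the other peaks of that list. In brain 2 it was 5.12, against 5.41 elsewhere. In fat body 1 it was 5.03, against 4.00, and in fat body 2 it was 10.7, against 8.50. Fold was therefore higher in broad regions in 3 of 4 lists, brain 2 being the exception. Wider peaks cover more reads, and the same calls chose the regions, so no test was made.

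Not every wide peak was strong. Among the peaks of 1500 bp or more, those of brain 1 had folds from 2.73 to 18.5 and those of brain 2 from 5.59 to 19.2, while fat body 1 ranged from 3.15 to 30.9 and fat body 2 from 5.26 to 45.5. By −log10 q, 25 of the 287 wide peaks of brain 1 and 28 of the 222 of fat body 2 lay in the weaker 50% of their list, as did 2 of 41 in fat body 1 and 0 of 15 in brain 2. The strongest 10% of the list held 115 wide peaks of brain 1 and 6 of brain 2, and 21 of fat body 1 and 70 of fat body 2. The peak of 45.5-fold enrichment was 1542 bp wide and spanned the region on BHWX01000023.1 from 13019974 to 13021515, and it was the strongest peak of fat body 2 in any broad region.

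The longest regions showed how differently a long stretch can be made up. The longest, on BHWX01000001.1 from 18110097 to 18114618 (4522 bp), held a 347 bp peak of brain 1 with 4.63-fold enrichment, at the 2.46th percentile of −log10 q of that list, near the middle of a fat body 1 peak that spanned it with 30.9-fold enrichment. It was the widest peak of fat body 1, and the number 2 lists had none there. The second, on BHWX01000027.1 from 9283699 to 9287867 (4169 bp), held the widest peaks of both number 2 lists, a brain 2 peak of 3806 bp (8.08-fold enrichment) and a fat body 2 peak of 3899 bp (9.25-fold). Their summits lay 35 bp apart, 825 and 860 bp from the region's start, and fat body 1 had only a 297 bp peak at that edge. The longest region was hence wide in fat body 1 alone, and the second in brain 2 and fat body 2 together.

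The third longest region, on BHWX01000023.1 from 15551796 to 15555262 (3467 bp), was also the longest that fat body had in both libraries and brain in none. It was a fat body 1 peak of 3.66-fold enrichment, and fat body 2 had a 607 bp peak of 1.91-fold enrichment inside it, the lowest fold of any peak in that list. The fourth, on the unplaced sequence BHWX01000096.1 from 16926 to 20261 (3336 bp), held the widest peak of brain 1, 2857 bp with 15.8-fold enrichment. Brain 2 had a peak of 378 bp there, and a fat body 1 peak of 2637 bp overlapped that of brain 1. The fifth, on BHWX01000003.1 from 6990998 to 6994132 (3135 bp), was a lone fat body 1 peak of 3.15-fold enrichment, the lowest fold among the wide peaks of that list. Low and high fold thus occurred side by side among the widest peaks.

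Of the next 5 regions by length, 4 joined peaks of several lists and 1 was a lone peak. The sixth, on BHWX01000011.1 from 16924041 to 16926967 (2927 bp), was built of 2 peaks each of brain 2 (508 and 910 bp) and fat body 2 (1817 and 853 bp) that interlocked. The seventh, on BHWX01000004.1 from 8106987 to 8109908, held a brain 1 peak of 427 bp and 5.10-fold enrichment inside a fat body 1 peak of 2922 bp and 25-fold enrichment, with summits at 8108403 in brain 1 and 8108400 in fat body 1. The eighth, on BHWX01000005.1 from 8980918 to 8983769, was a brain 1 peak of 2852 bp with its summit at 8983065. Brain 2 and fat body 1 each had a peak at its start and a second peak that covered the brain 1 summit. Those second peaks had summits at 8983185 in brain 2 and 8983080 in fat body 1. The summits of each pair were spaced 2184 bp apart in brain 2, against 2108 bp for fat body 1. The ninth, on BHWX01000023.1 from 18110677 to 18113513, was a brain 1 peak of 2739 bp with a 152 bp fat body 1 peak at its end. The tenth, on BHWX01000017.1 from 3275308 to 3278111 (2804 bp), was a lone fat body 2 peak of 22.7-fold enrichment. Of the 10 longest regions, 0 were present in all 4 lists, against 96 of the 691 broad regions, or 13.9%, and 0.825% of all merged regions. Of the 115 regions that reached 2000 bp, 23 were present in all 4 lists.

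**Figure D2:**
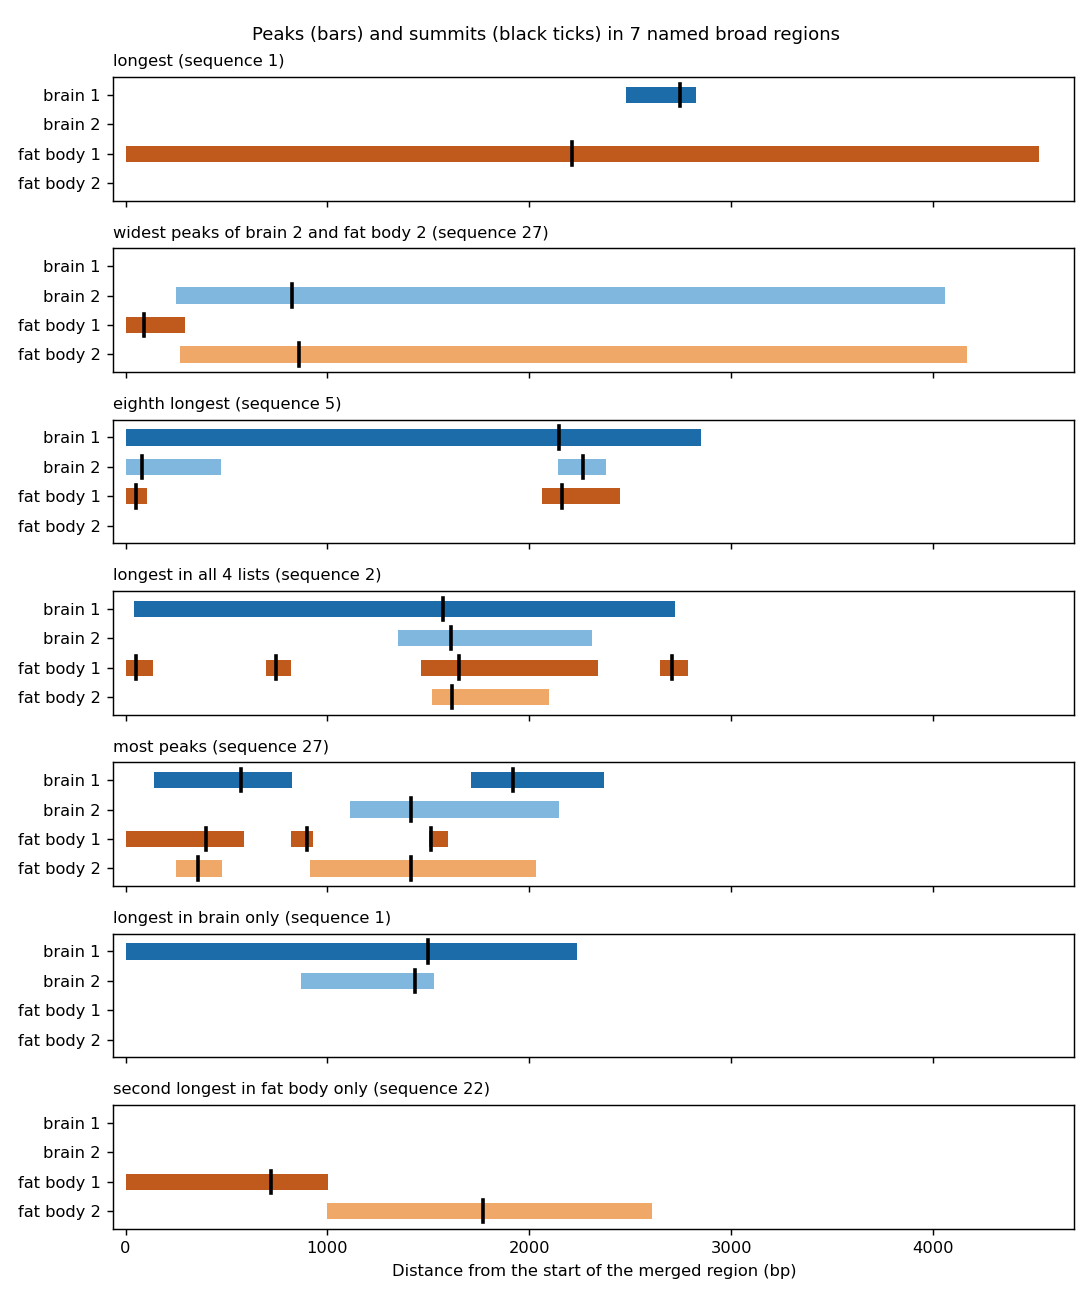
Peaks of the 4 lists (bars, 1 row per list, brain above fat body) and their summits (black ticks) in 7 named broad regions, drawn to scale against the distance from the start of the merged region in bp. The 4522 bp peak of fat body 1, the paired 3806 and 3899 bp peaks of brain 2 and fat body 2, and the chain of 8 short peaks show the range of make-up.

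Presence of any peak was much more even over the lists than the wide peaks were. A broad region had a peak in brain 1 in 424 cases, or 61.4% of the 691, against 27.9% of all merged regions. It had a peak in brain 2 in 376 cases (54.4%, against 8.84%), in fat body 1 in 500 (72.4%, against 79.7%) and in fat body 2 in 380 (55.0%, against 11.3%). A merged region grows with each list that adds a peak, so presence in more lists is partly built into the rule. Of regions present in 1 list, 0.111% were broad, and of those in 2, 3 and 4 lists 1.17%, 4.16% and 8.93% were. One list alone held 113 broad regions (16.4%, against 77.9% of all merged regions). Of these, brain 1 had 32 and brain 2 had 0, while fat body 1 had 23 and fat body 2 had 58.

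Most broad regions were present in both tissues. Both tissues had a peak in 528 regions, or 76.4%, against 20.1% of all merged regions. Brain lists alone held 41 (5.93%, against 13.3%) and fat body lists alone held 122 (17.7%, against 66.7%). All 4 lists held 96 regions (13.9%, against 0.825% of all merged regions). Without fat body 2, 188 broad regions were in all 3 remaining lists. Regions in brain 1 and fat body 1 alone numbered 129 (18.7%, against 11.4%) and those in brain 2 and fat body 2 alone 73 (10.6%, against 3.59%). Both of these classes share a library number and not a tissue. Regions in all lists but fat body 2 numbered 117 (16.9%, against 1.98%), and those in all lists but brain 1 numbered 71 (10.3%, against 1.36%). Whether the number marks a shared preparation is not stated in the labels.

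**Figure D3:**
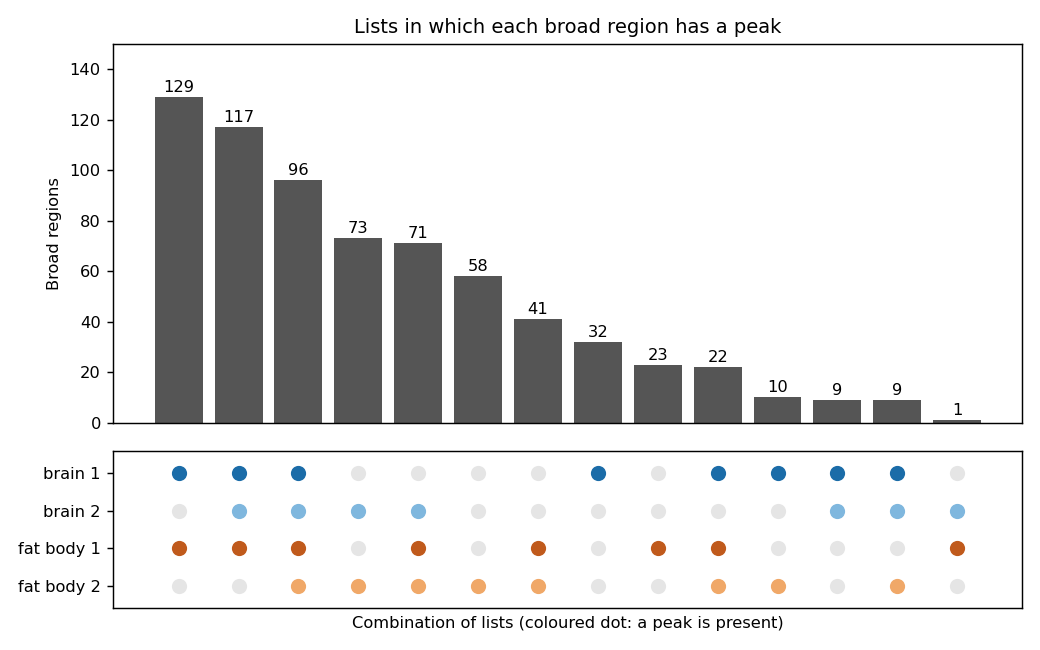
Number of broad regions (bars) for each combination of lists in which they have a peak, with a coloured dot for each list that has one, and brain rows above fat body rows. The combination of brain 1 with fat body 1 was the most frequent, at 129 regions, and 96 regions had a peak in all 4 lists.

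Broad regions found in both libraries of 1 tissue and neither of the other were few. Brain had 9 of its own (1.30%, against 0.502% of all merged regions) and fat body had 41 (5.93%, against 1.54%). The order of the tissues turned when every list was cut to its 11572 peaks of highest −log10 q, which gave 48 brain regions and 5 fat body regions. The counts also move with the libraries used. With a tissue called from its remaining library, the brain count was 0 without brain 1, 41 without brain 2 and 107 without fat body 1. The fat body count was 103 without brain 2 and 90 without fat body 1. Within number 1, brain had 60 broad regions that fat body lacked (8.68%, against 13.2% of all merged regions), and fat body had 136 that brain lacked (19.7%, against 65.0%). Within number 2, brain had 127 (18.4%, against 2.93%) and fat body had 131 (19.0%, against 5.39%). A region differed between tissues in both numbers in 61 cases, of which 9 were brain regions in both, 41 fat body regions in both and 11 pointed opposite ways.

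All 9 brain regions were a wide peak of brain 1 with 1 narrower brain 2 peak inside. Brain 2 covered a median of 19.9% of them. The longest lay on BHWX01000001.1 from 452912 to 455148, where the brain 1 peak was 2237 bp wide with 9.09-fold enrichment and the brain 2 peak was 658 bp wide with 4.35-fold enrichment, their summits at 454409 and 454346. The second lay on BHWX01000001.1 from 3139476 to 3141357, with 7.51-fold enrichment over 1882 bp in brain 1 and 2.89-fold over 383 bp in brain 2. The third lay on BHWX01000011.1 from 7583097 to 7584905, with 7.56-fold enrichment over 1809 bp in brain 1 and 4.79-fold over 317 bp in brain 2. The brain 2 peak covered the brain 1 summit in all 3 of these regions.

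Of the 41 fat body regions, 32 had a wide fat body 2 peak, 5 a wide fat body 1 peak, and 4 were chains. Fat body 1 covered a median of 18.4% and fat body 2 a median of 100%. After the 3467 bp region described above, the longest lay on BHWX01000022.1 from 3601319 to 3603926 (2608 bp). There a fat body 1 peak of 1005 bp (6.44-fold enrichment) and a fat body 2 peak of 1612 bp (42.4-fold) overlapped only at their edges, and the summits lay at 3602041 and 3603091. That region therefore joined different stretches of the libraries and was not the same open site in both. The third lay on BHWX01000020.1 from 3284211 to 3286787, with a 2577 bp peak in fat body 1 and peaks of 387 and 1359 bp in fat body 2, and the strongest summits coincided within 2 bp, at 3286279 for fat body 1 and 3286281 for fat body 2.

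Each deposited peak has 1 summit, so the number of summits of a list in a region is its number of peaks there. Nearly all broad regions had a single summit per list in 3 of the 4 lists. Several summits were found in 9 of 424 regions in brain 1 (2.12%), in 36 of 376 in brain 2 (9.57%) and in 12 of 380 in fat body 2 (3.16%), and never more than 2. Fat body 1 differed, with several summits in 237 of 500 regions: 172 had 2, 51 had 3, 13 had 4 and 1 had 5. Over all merged regions, brain 1 had 36420 peaks in 36392 regions and brain 2 had 11572 in 11517. Fat body 1 had 107057 in 103904 and fat body 2 had 14752 in 14724. Several summits were therefore rarer over all merged regions than in broad regions in every list, and the same calls chose the broad regions. By tissue, a list with several summits was found in 44 of the 569 regions with a brain peak, or 7.73%, and in 245 of the 650 with a fat body peak, or 37.7%. The difference between the tissues rests on fat body 1, since fat body 2, at 3.16%, lay between the 2 brain lists. Fat body 1 was also the list with the most and the shortest peaks, and the part of peak length in its summit number was not tested.

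Spacing was measured between neighbouring summits of the same list within a region. Brain had a median spacing of 942 bp (quartiles 762 and 1234 bp, 45 spacings) and fat body one of 690 bp (quartiles 525 and 957 bp, 329 spacings). The median of brain 1 was 897 bp (9 spacings) and that of brain 2 was 947 bp (36 spacings), against 686 bp for fat body 1 (317 spacings) and 963.5 bp for fat body 2 (12 spacings). The SD of these medians was 35.4 bp between the brain libraries and 196 bp between the fat body libraries, so the tissue medians differed by about as much as the fat body libraries did between themselves. Spacings under 400 bp occurred 42 times, all in fat body 1, whose shortest was 143 bp. The shortest spacing of brain 1 was 424 bp, that of brain 2 was 519 bp and that of fat body 2 was 505 bp. The joining distance of the caller is not known, and the part of that distance and of peak length in the short spacings was not tested.

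**Figure D4:**
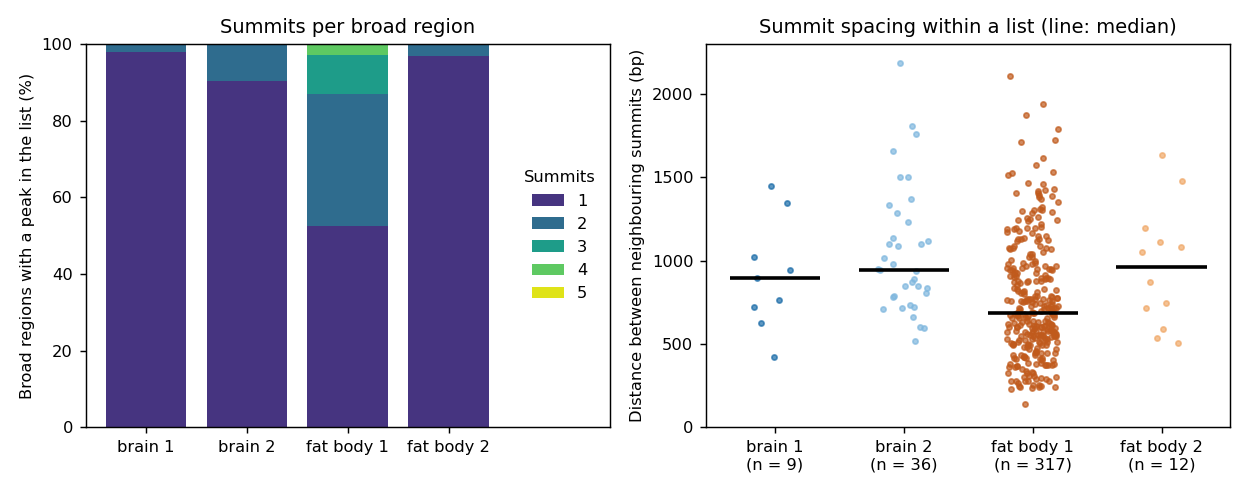
Left, percentage of the broad regions with a peak in a list (vertical axis) that hold 1 to 5 summits, for each list. Right, distance in bp between neighbouring summits of the same list within a broad region, 1 point per pair, with the median as a line (897, 947, 686 and 963.5 bp); only fat body 1 often has several summits.

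Fat body 1 broke up stretches that brain 1 had as a single wide peak. In the 245 regions with a wide brain 1 peak and a fat body 1 peak, fat body 1 had 1 summit in 96 and several in 149, or 60.8%. The spacing of its summits in those 149 regions had a median of 695 bp. The strongest fat body 1 peak of a region had a median fold of 8.51, against 4.31 for its other peaks there, which are lower by definition. The brain 1 summit lay a median of 40 bp from the nearest fat body 1 summit and within 100 bp in 69.0% of these regions. In the 96 regions with a wide fat body 2 peak and a fat body 1 peak, fat body 1 had several summits in 25, or 26.0%, and its nearest summit lay a median of 365.5 bp from the fat body 2 summit, within 100 bp in 21.9%.

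The longest region of all 4 lists, on BHWX01000002.1 from 980143 to 982929 (2787 bp), followed this layout. It held a brain 1 peak of 2676 bp and 1 peak each of brain 2 and fat body 2, of 964 and 582 bp. Fat body 1 had 4 peaks there, with 695, 905 and 1054 bp between neighbouring summits. Brain 1 had its main summit at 981716 with 8.98-fold enrichment and brain 2 at 981755 with 4.62-fold. Fat body 1 had it at 981794 with 11.5-fold and fat body 2 at 981762 with 9.90-fold, so the 4 main summits lay within 100 bp. The side peaks of fat body 1 had 4.77-fold, 4.57-fold and 4.03-fold enrichment. A single site was thus the high point in every list, and brain 1 alone joined it to its flanks.

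The second longest region of all 4 lists, on BHWX01000009.1 from 11676888 to 11679545 (2658 bp), had 7 peaks and at least 2 high points. Brain 1 itself had 2 peaks there, of 1851 and 331 bp. Brain 2 peaked at 11679338 with 6.58-fold enrichment and fat body 2 at 11679317 with 21.6-fold. Brain 1 was highest at 11678573 with 9.24-fold enrichment, as was fat body 1 at the same base with 10.8-fold, and each had a weaker summit near the other point, at 11679335 in brain 1 and 11679332 in fat body 1. The high point of this region therefore followed the library number. The third, on BHWX01000024.1 from 17202936 to 17205379 (2444 bp), had the main summit of brain 1 at 17203611 and that of brain 2 at 17203696, while fat body 1 peaked at 17203521 and fat body 2 at 17203611.

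The region with the most peaks, 8, was a chain on BHWX01000027.1 from 829365 to 831733 (2369 bp), with no peak above 1121 bp. Brain 1 had 2 weak peaks of 5.44-fold and 5.30-fold enrichment, with summits at 829939 and 831285, and brain 2 peaked at 830778 with 17.9-fold. The strongest peak of fat body 2, of 22.9-fold, had its summit at the same base as that of brain 2, whereas that of fat body 1, of 34.5-fold, lay at 829762, where fat body 2 had a second peak of 11.0-fold (829725). The weakest fat body 1 peak in it, of 2.68-fold, was 94 bp wide, the shortest length in that list.

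Summits of different lists coincided most often between brain 1 and fat body 1. In the 364 regions with both, the median distance of the nearest summits was 44 bp, and 64.0% had them within 100 bp. For brain 1 and brain 2 the median was 97 bp, with 50.6% within 100 bp (231 regions). For brain 2 and fat body 2 it was 213 bp, with 34.9% (249 regions). For fat body 1 and fat body 2 it was 283 bp, with 35.2% (230 regions). The pairs that share neither tissue nor number had medians of 145 bp for brain 2 and fat body 1 (285 regions) and 412 bp for brain 1 and fat body 2 (137 regions). A list with several summits has more chances of a near one, which favours the pairs with fat body 1. In 81 of the 230 regions of both fat body lists the nearest summits lay over 500 bp apart, as they did in 46 of the 231 regions of both brain lists.

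Within the region, the strongest summit of fat body 2 lay nearer the middle than that of the other lists. The median distance from the nearer end, as a share of the region width, was 25.9% for brain 1 and 27.3% for brain 2, against 23.2% for fat body 1 and 39.7% for fat body 2. The strongest summit fell within the central 33.3% of the region in 32.1% of the brain 1 regions and 34.0% of the brain 2 regions, against 29.2% of those of fat body 1 and 64.2% of those of fat body 2. The outermost 10% at either end held the strongest summit of brain 1 in 8.49% of its regions and of brain 2 in 9.84%. For fat body 1 this was 19.4% and for fat body 2 4.47%. The widest peak came from brain 1 in 350 of the 691 regions and from fat body 2 in 271. Positions in a list are therefore often measured against the edges of another list's peak.

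Broad regions were spread over all 28 long sequences, which are those numbered 1 to 28 in the sequence names. They held 662 broad regions, from 15 on BHWX01000022.1 to 36 on BHWX01000023.1. Taking the last peak end as the length of a sequence, the density ran from 0.812 to 2.39 per Mb with a median of 1.51, while all merged regions ran from 193 to 327 per Mb with a median of 296. It was highest on BHWX01000002.1, at 2.39 per Mb (20 regions, exact Poisson 95% interval 1.46 to 3.69), and on BHWX01000027.1, at 2.20 per Mb (24 regions, 1.41 to 3.27). It was lowest on BHWX01000022.1, at 0.812 per Mb (15 regions, 0.455 to 1.34), and on BHWX01000001.1, at 0.824 per Mb (17 regions, 0.480 to 1.32). For 25 of the 28 sequences the interval held the density over all long sequences, 1.49 per Mb. The other 3, BHWX01000001.1, BHWX01000012.1 and BHWX01000022.1, lay below it, and 0 lay above it. BHWX01000001.1 was also the sequence with the fewest merged regions of any width per Mb, whereas BHWX01000022.1 had 283 per Mb, close to the median. Poisson and binomial intervals over regions cover counting only, not the spread between libraries.

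**Figure D5:**
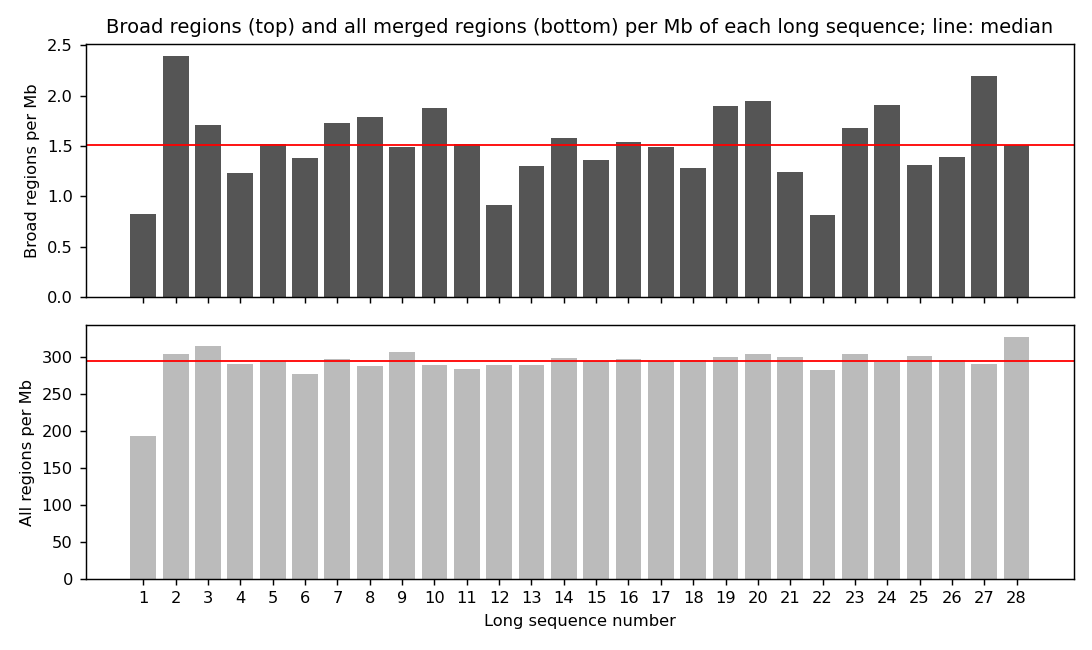
Broad regions per Mb (top) and all merged regions per Mb (bottom) for each of the 28 long sequences (horizontal axis), with the median as a red line (1.51 and 296 per Mb). Broad density varies from 0.812 to 2.39 per Mb, while that of all regions is nearly level apart from sequence 1.

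Unplaced sequences, those numbered above 28, held 29 broad regions on 27 of the 180 sequences with any peak. Of the 747 merged regions on unplaced sequences 3.88% were broad (exact binomial 95% interval 2.62 to 5.53), against 0.511% of the 129562 on long sequences (0.473 to 0.551). Of the 29, brain 1 had a peak in 6 and brain 2 in 10, while fat body 1 had one in 11 and fat body 2 in 18. These were 20.7%, 34.5%, 37.9% and 62.1% of the 29, against 16.6%, 26.2%, 55.8% and 37.9% of the 747 merged regions on unplaced sequences. Peaks of 1500 bp or more were present in 27 of the 29, with brain 1 giving one in 3, brain 2 in 1, fat body 1 in 8 and fat body 2 in 17. Only 1 list was involved in 16 of the 29, against 97 of the 662 on long sequences. How well reads map to these sequences was not tested. Leaving the unplaced sequences out left 662 broad regions, with counts of 9, 41 and 96 in brain only, fat body only and all 4 lists as before.

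Along the long sequences few broad regions lay within 10 kb of the next, and their spacing was not compared with random placement. Of 634 gaps between neighbours, the median was 406 kb and the longest 4.47 Mb, and 15 were 10 kb or less. The closest pair lay 1014 bp apart near the start of BHWX01000007.1, at 21825 to 24257 and 25272 to 27185. The next closest pair, 1852 bp apart, lay on BHWX01000023.1 at 3421602 to 3423374 and 3425227 to 3427117. Other merged regions of any width were close by: a broad region had a median of 5 within 10 kb of its centre, the same median as regions from 1000 bp up to the threshold and regions under 1000 bp. None lay that close for 0.906% of broad regions (6 of 662), against 0.398% and 0.162% of those narrower classes. Of the broad regions, 7.10% lay within 500 kb of a sequence end, against 6.28% of all merged regions. No test of these differences was made.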

How the data were processed

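The submitters' processing notes name MACS2 2.1.0, deepTools 3.3.0, Bowtie2, Picard and Trim Galore. Other settings and the genome build: not given in the sources used here. Per the peak names, all lists carry a limit of 1e-5, stated as a p-value in brain 2 and fat body 1 and as a q-value in fat body 2. Peaks were listed per library. The deposited columns are start, end and summit, the fold enrichment ratio, −log10 p and −log10 q, and a deposited integer score, which was not used. Reads and depth were not analysed here.

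Overlapping peaks were merged (Python 3.11.15, pandas 2.3.3), and merging was tested on simulated data and against bedtools 2.31.1. Coordinates are 1-based. Presence of a region in a list means that the list has at least 1 peak within it. Intervals are exact (Clopper-Pearson binomial, or Poisson; scipy 1.17.1). No model was fitted. Members and comparisons were chosen with earlier results of these data known. Named regions are the 10 longest, the 3 longest in all 4 lists, in both brain lists only and in both fat body lists only, the one with the most peaks, those with the widest peak of each list, and 2 on either side of the threshold. Other named regions (the strongest peak, the closest neighbours, and some with 2 wide peaks) were picked after their values were seen. Alternatives were other widths, a stricter q, equal list lengths, other joining rules, each library left out and, chosen after seeing the data, no unplaced sequences. No genome of this build was used, so no sequence was read.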

Additional observations from a re-analysis of the deposited data

How the results depend on the processing

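With a −log10 q of at least 5 there were 685 broad regions, and all other counts stayed within 1.5 times. With a width of at least 1000 bp there were 4506 regions, 92 in brain only, 436 in fat body only, 434 in all 4 lists and 3728 with a single peak of that width, and the brain summit spacing was 848.5 bp. With at least 2000 bp these were 115, 1, 8, 23 and 88, and the spacing was 1346 bp. By construction a lower width admits more regions. Cutting every list to its 11572 best peaks gave 523 regions, with 48 in brain only, 5 in fat body only and 53 in all 4 lists, so the order of the tissues turned; the cause was not tested. Joining across gaps of up to 100 bp gave 771 regions and a brain spacing of 1034.5 bp, and joining at an overlap of 50% of the shorter peak gave 601. Leaving out 1 library each gave 309 to 659 regions, 0 to 107 in brain only, 28 to 103 in fat body only, 89 to 188 in every remaining list and 266 to 547 with a wide peak. Spacing then ran from 941 to 1021.5 bp in brain and from 683 to 874 bp in fat body. No paired test was made; with the number as a replicate block, within number 1 the counts were 60 for brain and 136 for fat body, and within number 2 they were 127 and 131. A peak list gives no reads outside its peaks, so absence may be lack of depth.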
